A study of Mus musculus with 6 samples.

Results

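Granzymes, perforin and natural killer (NK) receptors are the armament of cytotoxic lymphocytes, and their transcripts were measured here in mouse bone marrow cells sorted and labelled as regulatory T cells (Tregs). The genes were chosen by symbol and comprise 5 granule protein genes (Gzma, Gzmb, Prf1, Nkg7 and Ctsw), 4 NK receptor genes (Klrb1c, Klrd1, Klrk1 and Ncr1) and Cd8a. All 10 are among the 15483 genes of the deposited tables, and all 10 passed the minimum mean of 1 FPKM (a density of fragments corrected for transcript length and library size) required for a test. RNA-seq libraries came from 3 irradiated samples, taken 3 months after irradiation (IR), and from 3 control samples, all labelled wild type (WT). The gate is given as CD3+CD4+NK1.1-Foxp3+, and the series title speaks of premature aging. The labels do not give strain, sex, age or radiation dose, and whether each replicate was its own mouse is not stated, so p-values measure only the spread between these libraries, which may be technical.

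Cytotoxic cells store granzymes, which are serine proteases, together with the pore-forming protein perforin in secretory lysosomes that are released onto a target cell. NK cells decide whether to do so from the balance of activating and inhibitory receptors, many of which are C-type lectins encoded side by side in the NK gene complex. CD8 T cells share much of this machinery, and activated Tregs are known to make granzymes, granzyme B in particular. Runx and T-box transcription factors are established regulators of the programme in NK and CD8 T cells.

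The libraries held transcripts of many marrow cells, so the values below are not those of Tregs alone, and the purity of the sort was not tested. The highest of 20 granulocyte markers, S100a8, reached 39026 ± 427 FPKM in irradiated libraries and 25283 ± 1249 FPKM in control libraries (SD, n = 3), against 12.6 ± 0.795 and 22.6 ± 1.93 FPKM for Foxp3, the defining Treg factor. Column totals were 480854 to 485365 FPKM in irradiated and 451444 to 470375 FPKM in control libraries. Absolute depth is unknown, and the low values put the irradiated libraries at 81.6% to 92.7% of the depth of control replicate 1 and control replicates 2 and 3 at 98.5% and 103%. In such bulk samples fewer cells of a type and less RNA per cell cannot be told apart.

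The promoters are shown first because a Runx hexamer recurred in them. RefSeq (GRCm38.p6) gave a window of 250 bases before to 50 after the start site for 8 of the 10 genes. TGTGGT, searched on both strands, stood in 7 of these 8 genes (87.5%), with Cd8a as the exception. The same letters stood in at least 1 window of 15.9% of 12181 genes of the deposited tables, and in 16.8% of all 32851 windows of this length. Gzma (chromosome 13, 113100932 to 113101231, minus strand), Gzmb (chromosome 14, 56262285 to 56262584, minus strand) and Klrb1c (chromosome 6, 128788592 to 128788891, minus strand) are printed as genes whose transcripts fell. Nkg7 (chromosome 7, 43436888 to 43437187, plus strand) is printed as the granule gene that did not pass the test. Capitals mark the searched motifs, each read on both strands and with no overlap here. These were the Runx hexamer TGTGGT, the T-box core with the letters GGTGTGA, and the Ets site with the letters GGAAGT.
Gzma: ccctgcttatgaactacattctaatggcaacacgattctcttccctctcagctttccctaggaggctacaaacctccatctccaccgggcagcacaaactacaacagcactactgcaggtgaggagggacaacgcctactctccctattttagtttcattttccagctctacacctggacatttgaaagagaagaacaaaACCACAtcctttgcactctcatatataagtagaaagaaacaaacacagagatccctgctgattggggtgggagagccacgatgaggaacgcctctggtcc
Gzmb: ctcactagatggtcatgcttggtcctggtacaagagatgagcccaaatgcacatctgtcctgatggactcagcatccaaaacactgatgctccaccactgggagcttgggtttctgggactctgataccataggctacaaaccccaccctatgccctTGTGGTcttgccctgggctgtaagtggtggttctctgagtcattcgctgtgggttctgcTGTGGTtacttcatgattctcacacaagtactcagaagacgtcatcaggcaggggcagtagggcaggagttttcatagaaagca
Klrb1c: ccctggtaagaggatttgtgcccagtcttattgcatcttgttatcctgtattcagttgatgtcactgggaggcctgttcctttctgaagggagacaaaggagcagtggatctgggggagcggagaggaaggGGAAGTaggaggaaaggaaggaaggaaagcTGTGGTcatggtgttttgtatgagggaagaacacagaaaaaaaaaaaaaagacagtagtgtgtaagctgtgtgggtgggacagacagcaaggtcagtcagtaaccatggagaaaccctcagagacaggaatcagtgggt
Nkg7: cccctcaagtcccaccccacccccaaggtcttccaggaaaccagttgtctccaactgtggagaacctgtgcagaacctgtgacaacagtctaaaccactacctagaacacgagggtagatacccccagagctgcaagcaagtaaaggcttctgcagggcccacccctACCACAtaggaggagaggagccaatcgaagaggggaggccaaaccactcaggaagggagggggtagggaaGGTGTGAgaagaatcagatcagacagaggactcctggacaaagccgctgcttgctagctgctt

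The Gzmb window holds 2 Runx hexamers, with first bases at -93 and -34 from the start site. The Gzma hexamer begins at -50 and the Klrb1c hexamer at -89, beside an Ets match at -119. In Nkg7 the Runx hexamer begins at -83, and a T-box core stands at -13. That T-box core was found in 3.98% of all windows and, among these genes, in Nkg7 alone. The Ets letters, found in 23.8% of all windows, were present in Prf1 and Klrb1c. For comparison the hexamer stood in 2 of 3 other granzyme genes with a window, in 54.5% of 11 NK coreceptor and adaptor genes, in 28.6% of 21 other NK cluster receptor genes, in 33.3% of 12 T cell core genes and in 16.7% of 18 granulocyte marker genes. A match describes letters in a window and says nothing of binding, and the windows of genes that fell and of the gene that did not pass both carried the hexamer.

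Among the granule genes, the granzymes and perforin were lower after irradiation while the granule membrane gene Nkg7 did not pass the test. Of the 5 granule genes 0 rose and 4 fell, namely Gzma, Gzmb, Prf1 and Ctsw, by limma with Benjamini-Hochberg adjustment over all 10666 tested genes. Over all tested genes 10.3% fell and 6.29% rose. In the same libraries the T cell core markers fell in 15 of 18 tested genes, 13 of 20 granulocyte markers rose, and the part of these in the granule results was not tested.

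Gzma encodes granzyme A, a tryptase that cleaves after basic residues (chromosome 13, 113093825 to 113100981, GENCODE M21 on GRCm38). It stood at 4.41, 3.32 and 6.18 FPKM in irradiated replicates 1, 2 and 3, and at 18.4, 17.0 and 14.01 FPKM in control replicates 1, 2 and 3. Every irradiated value lay under every control value, and the irradiated mean was 28.2% of the control mean. The log2 change of FPKM + 1 was -1.65 ± 0.17 SE (limma adjusted p = 6.19e-05), the largest fall of the 10 genes.

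Gzmb encodes granzyme B, which cleaves after aspartate and activates caspases (chromosome 14, 56258838 to 56262260). Its levels were 8.16, 7.17 and 9.12 FPKM in irradiated and 17.3, 20.1 and 17.3 FPKM in control libraries. The groups did not overlap, the irradiated mean was 44.7% of control, and the log2 change was -1.07 ± 0.11 SE (limma adjusted p = 5.09e-05).

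Prf1 encodes perforin, the pore through which granzymes reach the cytosol of a target (chromosome 10, 61297833 to 61304680). It was low, at 2.79, 2.30 and 1.20 FPKM in irradiated and 5.94, 5.24 and 4.22 FPKM in control libraries. The groups did not overlap, although irradiated replicate 3 alone was near 1 FPKM. The log2 change was -1.01 ± 0.20 SE (limma adjusted p = 0.00562).

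Ctsw encodes cathepsin W, a cysteine protease of NK and CD8 T cells (chromosome 19, 5465043 to 5468507). It stood at 20.4, 21.6 and 18.7 FPKM in irradiated and 27.1, 24.6 and 28.2 FPKM in control libraries. These groups did not overlap, but the fall was smaller than those of the granzymes and perforin, at a log2 change of -0.38 ± 0.08 SE (limma adjusted p = 0.0104). Ctsw overlaps Fibp, a gene on the opposite strand at 26.7, 29.9 and 28.3 FPKM in irradiated and 26.4, 24.3 and 30.4 FPKM in control libraries. The library kit keeps strand, but how strand was counted is not given in the sources used here.

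Nkg7 encodes a granule membrane protein that takes part in degranulation (chromosome 7, 43437073 to 43438249). It was the most abundant of the 10 genes by far, at 159, 162 and 161 FPKM in irradiated and 170.0, 167 and 155 FPKM in control libraries. The groups overlapped, and the log2 change of -0.03 had a 95% interval of -0.14 to 0.08 (limma adjusted p = 0.757). Its mean level ranked 347 of 15483 genes, whereas that of Ctsw, the next granule gene, ranked 3040.

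**Figure D1:**
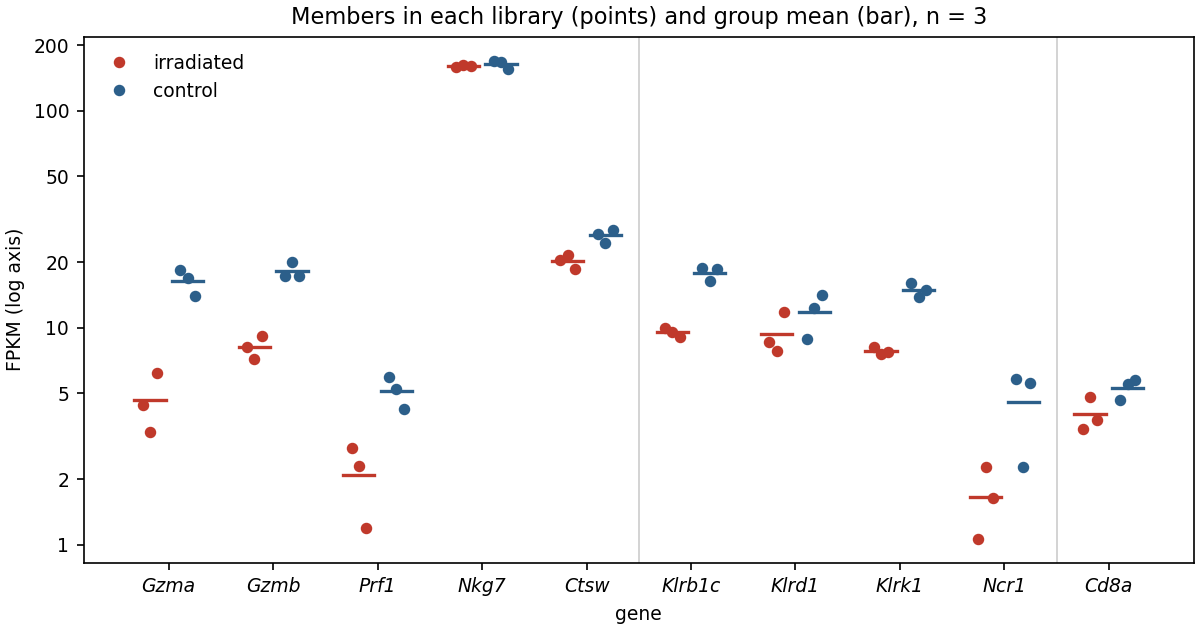
FPKM of each of the 10 genes on a log axis in the 3 irradiated and 3 control libraries, with the group mean as a bar. Nkg7 sits at 155 to 170.0 FPKM in both groups, the irradiated points of Gzma, Gzmb, Prf1, Ctsw, Klrb1c and Klrk1 lie under all their control points, and those of Klrd1, Ncr1 and Cd8a overlap with control.

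Among the receptors, Klrb1c and Klrk1 were lower by nearly the same amount, Ncr1 was lower in a way that rested on single libraries, and Klrd1 did not pass. Of the 4 receptor genes 0 rose and 3 fell by limma, beside 6.29% and 10.3% of all tested genes, and the fall of Ncr1 did not hold under several other settings. Of 11 tested genes of a separate NK marker list 0 rose and 8 fell, and the summed level of that list was 245 to 254 FPKM in irradiated and 351 to 365 FPKM in control libraries. Most of that sum came from Ccl5, Fcgr3 and Il2rb, of which Fcgr3 did not pass (limma adjusted p = 0.662). None of the 12 listed markers was at 0 throughout either group. Klra8 and Klra9, among those that fell, averaged 0.236 and 0.715 FPKM in irradiated libraries. They reached the minimum mean of 1 FPKM through the control libraries, where they were higher, so their calls add little to that count. All 12 also stand in the other lists below. Their part in the receptor result was not tested.

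Klrb1c encodes NK1.1 (NKR-P1C), the activating receptor that the sorting gate excluded (chromosome 6, 128778485 to 128789215). It was present in every library, at 9.92, 9.56 and 9.08 FPKM in irradiated and 18.8, 16.3 and 18.6 FPKM in control libraries. The groups did not overlap, and the log2 change was -0.84 ± 0.09 SE (limma adjusted p = 9.46e-05). Klrb1c shares sequence with other genes. Of its 3003 distinct stretches of 50 bases 510 (17.0%) also occur in transcripts of Gm44511, Klrb1a, Klrb1b or the pseudogene Klrb1-ps1, so its level is uncertain. Gm44511 overlaps Klrb1c on the same strand and has no value of its own here. How reads were assigned among these genes was not tested. The other 9 of the 10 genes shared no such stretch.

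Klrk1 encodes NKG2D, an activating receptor of NK cells and CD8 T cells for stress-induced ligands (chromosome 6, 129610323 to 129623864). It stood at 8.16, 7.60 and 7.76 FPKM in irradiated and 16.0, 13.9 and 14.95 FPKM in control libraries. The groups were well apart, with a log2 change of -0.85 ± 0.10 SE (limma adjusted p = 0.000112). The level of Klrk1 was 82.3%, 79.4% and 85.4% of that of Klrb1c in irradiated and 85.4%, 85.2% and 80.5% in control libraries, a ratio chosen after the values were seen and not tested.

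Ncr1 encodes NKp46, an activating receptor largely restricted to NK cells and innate lymphoid cells (chromosome 7, 4337724 to 4345164). It stood at 1.06, 2.29 and 1.63 FPKM in irradiated and 5.81, 2.27 and 5.56 FPKM in control libraries. Control replicate 2 lay within the irradiated range, so the groups overlapped. The log2 change was -1.01 ± 0.27 SE (limma adjusted p = 0.0271). This call was lost without irradiated replicate 1 (adjusted p = 0.0816) or 3 (0.0662) and without control replicate 1 (0.115) or 3 (0.0979). It was also lost with no filter on low values (0.113) and with no trend in the fit (0.0702).

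Klrd1 encodes CD94, the shared chain of receptors built with NKG2A (Klrc1) or NKG2C (Klrc2) (chromosome 6, 129591782 to 129598775). It stood at 8.62, 7.78 and 11.8 FPKM in irradiated and 8.91, 12.3 and 14.2 FPKM in control libraries. The groups overlapped, and the log2 change of -0.30 had a 95% interval of -0.68 to 0.08 (limma adjusted p = 0.282). Its partner Klrc1 averaged 4.35 ± 0.883 FPKM in irradiated and 8.15 ± 0.681 FPKM in control libraries (SD, n = 3), a log2 change of -0.79 ± 0.14 SE (limma adjusted p = 0.00283).

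Cd8a encodes the alpha chain of the CD8 coreceptor of cytotoxic T cells, and is also transcribed in some mouse dendritic cells (chromosome 6, 71373427 to 71379173). It stood at 3.40, 4.80 and 3.77 FPKM in irradiated and 4.65, 5.49 and 5.73 FPKM in control libraries, although the gate selected CD4 cells. The groups overlapped between irradiated replicate 2 and control replicate 1. The log2 change of -0.34 had a 95% interval of -0.65 to -0.02 and did not pass over all genes (limma adjusted p = 0.138). Cd8b1, the beta chain that marks conventional CD8 T cells, averaged 5.37 ± 0.394 FPKM in irradiated and 4.94 ± 1.08 FPKM in control libraries (limma adjusted p = 0.663). Of the 4 CD8 T cell markers, Cd8a included, 0 rose and 1 fell, Runx3, beside 6.29% and 10.3% of all tested genes. Their summed level was 22.3 to 24.5 FPKM in irradiated and 27.2 to 30.3 FPKM in control libraries. Runx3 was the largest part of that sum, at a mean of 12.9 FPKM in irradiated and 17.2 FPKM in control libraries.

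In all, 0 of the 10 genes rose and 7 fell, or 6 without Ncr1, beside 6.29% and 10.3% of all tested genes, of which 16.6% changed in either direction. The median log2 change was -0.85 over the 10 genes and -0.02 over all tested genes. In 6 of the 10 every irradiated value lay under every control value, against 20.1% of all tested genes. Nkg7 and Ctsw led the order of levels in both groups, each apart from the next gene. In irradiated libraries the ranges of Klrb1c, Klrd1, Gzmb and Klrk1, averaging 7.84 to 9.52 FPKM, overlapped from each gene to the next. Gzma, Cd8a, Prf1 and Ncr1 followed with means of 4.64 to 1.66 FPKM, and of these Cd8a lay wholly above Prf1. In control libraries Gzmb, Klrb1c, Gzma, Klrk1 and Klrd1, averaging 18.2 to 11.8 FPKM, overlapped from each gene to the next, as did Cd8a, Prf1 and Ncr1, with means of 5.29 to 4.55 FPKM, below them. Gzma averaged 56.0% ± 10.8 of the level of Gzmb in irradiated and 90.6% ± 13.5 in control libraries (SD, n = 3), a ratio chosen after the values were seen.

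Since 15 of 18 T cell core genes fell, the genes were also set against those 18 genes (such as Cd3e, Cd4 and Lck) of the same library. On that scale Gzma, Gzmb, Prf1, Klrb1c and Klrk1 were lower. The scaling moves every gene of a library by the same factor, so Nkg7 and Ctsw turned positive together with most genes, and their direction there is no result about them. The geometric mean of the core was 17.3, 17.1 and 16.9 FPKM in irradiated and 25.9, 25.7 and 26.5 FPKM in control libraries. Of the 10 genes 5 fell and 2 rose by limma, where over all tested genes 2.48% fell and 78.1% rose, and the median of all tested genes was 0.52.

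Gzma reached 25.5%, 19.5% and 36.5% of the core mean in irradiated and 70.9%, 66.4% and 52.9% in control libraries. Its groups did not overlap, and the log2 change on the core scale was -1.12 ± 0.18 SE (limma adjusted p = 0.000209). Gzmb reached 47.1%, 42.0% and 53.9% of the core mean in irradiated and 66.8%, 78.3% and 65.3% in control libraries, a log2 change of -0.52 ± 0.11 SE (adjusted p = 0.00155). The core genes themselves ran from -0.39 for Cd3g to 0.36 for Lat on this scale. The estimates of Gzma, Gzmb and Prf1, the last at -0.56 ± 0.21 SE (adjusted p = 0.0279), lay below that range. Of these genes only Gzma had its whole interval below the range, at -1.52 to -0.72. The intervals of Gzmb (-0.76 to -0.27) and Prf1 (-1.02 to -0.10) included the value of Cd3g. A fall beyond the core genes was therefore not shown for Gzmb or Prf1. Klrb1c at -0.28 ± 0.09 SE (adjusted p = 0.0135) and Klrk1 at -0.30 ± 0.09 SE (adjusted p = 0.0130) lay within the core range, near Foxp3 at -0.23. Klrb1c averaged 75.8% ± 1.95 of the level of Foxp3 in irradiated and 79.4% ± 6.09 in control libraries (SD, n = 3), a ratio chosen after the values were seen.

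Nkg7 moved with the bulk of all genes on this scale. It reached 920.0%, 949% and 953% of the core mean in irradiated and 657%, 652% and 586% in control libraries, a log2 change of 0.57 ± 0.06 SE (limma adjusted p = 1.08e-05). That is close to the median of all tested genes, 0.52. Ctsw stood at 0.20 ± 0.08 SE (adjusted p = 0.0387), below that median, so its direction differs between the scales. Klrd1, Ncr1 and Cd8a did not pass, and the log2 change of Ncr1 was -0.58 ± 0.27 SE (adjusted p = 0.0644). An exact two-sided permutation test of a single ratio over the 6 libraries cannot go below 0.1, and it gave 0.1 for 6 of the 10 genes and 0.2 for Prf1, whose ratios overlapped.

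**Figure D2:**
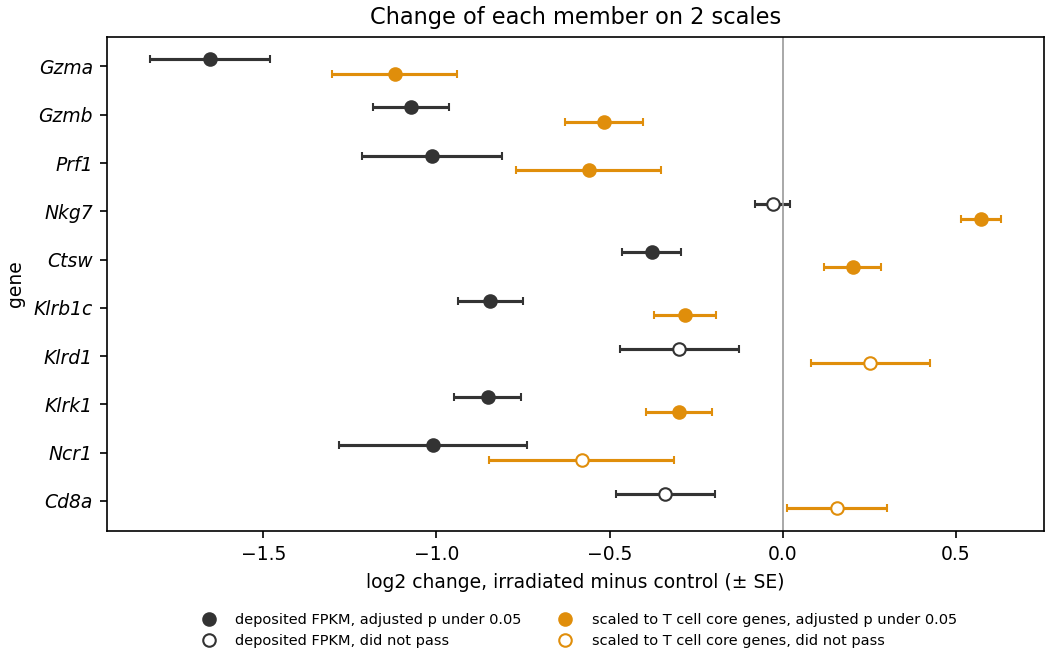
Log2 change of each gene, irradiated minus control, with its standard error, on the deposited FPKM and after scaling each library to 18 T cell core genes, with filled points for an adjusted p under 0.05. Gzma, Gzmb, Prf1, Klrb1c and Klrk1 are filled and negative on both scales, while Ctsw changes sign and Nkg7 moves to 0.57.

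The other granzymes were scarce. Of 8 further granzyme genes 3 were in the tables, and neither of the 2 that were tested passed. Gzmk, the granzyme of memory-like CD8 T cells, averaged 2.23 ± 1.01 FPKM in irradiated and 4.10 ± 0.999 FPKM in control libraries (SD, n = 3, limma adjusted p = 0.0773). Gzmm averaged 1.30 ± 0.581 FPKM in irradiated and 1.73 ± 0.213 FPKM in control libraries (adjusted p = 0.383). Gzmc was listed at 0 in all 3 irradiated libraries and at 0.980, 0.209 and 0.451 FPKM in control libraries, below the minimum for a test.

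Genes that process or guard the granule contents fell in part. Of 11 tested genes of granule matrix, granzyme activation and inhibition 0 rose and 5 fell, beside 6.29% and 10.3% of all tested genes. Their median log2 change was -0.31. Ctsc, the protease that trims granzymes to their active form, averaged 24.4 ± 1.20 FPKM in irradiated and 30.4 ± 0.812 FPKM in control libraries (SD, n = 3, log2 change -0.31 ± 0.07 SE, limma adjusted p = 0.0132), and its call was lost without control replicate 2 (adjusted p = 0.0618). Lamp1, a lysosomal membrane protein that appears on the surface of degranulating cells, changed by -0.39 ± 0.04 SE (adjusted p = 8.58e-05). Ctsh, a cathepsin, changed by -0.49 ± 0.06 SE and Serpinb6a, a protease inhibitor, by -0.59 ± 0.09 SE. On the T cell core scale 7 of the 11 were higher and 0 lower, where 78.1% of all tested genes were higher, and Lamp1 and Ctsc turned to 0.21 and 0.28. In the same libraries 11 of 12 tested markers of monocytes and macrophages fell. Their summed level was 5377 to 5423 FPKM in irradiated and 6689 to 7135 FPKM in control libraries. Most of that sum was Lyz2, which averaged 4968 FPKM in irradiated and 5967 FPKM in control libraries. The part of these markers in the granule matrix result was not tested.

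Genes of granule transport and exocytosis did not follow the granzymes. Of 14 tested genes 3 rose, 1 fell and 10 did not pass, with a median of 0.08. Over all tested genes 6.29% rose and 10.3% fell. Stxbp2, which encodes Munc18-2 and is mutated in a human form of familial haemophagocytic disease, averaged 159 ± 5.02 FPKM in irradiated and 116 ± 6.002 FPKM in control libraries (SD, n = 3, log2 change 0.45 ± 0.05 SE, limma adjusted p = 0.000180). Sytl3 (0.58 ± 0.16 SE) and Lyst (0.29 ± 0.09 SE), a regulator of lysosome size, rose as well. The Sytl3 call was lost without irradiated replicate 2 or 3 or control replicate 2 or 3 (adjusted p = 0.06998 to 0.131), and the Lyst call without irradiated replicate 2 or 3 or control replicate 1 or 2 (0.0916 to 0.1505). Both calls were also lost with no filter on low values (0.104 for Sytl3 and 0.0911 for Lyst) and with no trend in the fit (0.0536 and 0.1045). Sytl2, a Rab27 effector, was the gene that fell, by 0.62 on the log2 scale (adjusted p = 0.0114). Of the 20 granulocyte markers 13 rose, 2 fell (the eosinophil genes Prg2 and Epx) and 5 did not pass. They summed to 106906 to 110051 FPKM in irradiated and 75650 to 81415 FPKM in control libraries. Of 8 tested basophil and mast cell markers 7 rose. The sum of 9 was 3604 to 3687 FPKM in irradiated and 2402 to 2576 FPKM in control libraries. The mast cell gene Cma1 was at 0 in all irradiated libraries and at 0, 0 and 0.257 FPKM in control libraries. It was too low for a test. The part of these cells in the result was not tested.

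Of 7 death ligand and cytokine genes of killer cells 2 rose and 4 fell, beside 6.29% and 10.3% of all tested genes. Their median was -0.55. Ccl5, a chemokine stored by cytotoxic lymphocytes, averaged 86.4 ± 6.39 FPKM in irradiated and 141 ± 1.77 FPKM in control libraries (SD, n = 3, log2 change -0.70 ± 0.06 SE, limma adjusted p = 1.27e-05). Ifng, the main cytokine of NK and CD8 T cells, averaged 1.01 ± 0.521 FPKM in irradiated and 2.90 ± 0.595 FPKM in control libraries, a log2 change of -0.97 ± 0.20 SE (adjusted p = 0.00681). On the T cell core scale Ifng was the 1 gene of the 7 that was lower, at -0.60 (adjusted p = 0.0201), and 2 were higher. Over all tested genes 2.48% were lower and 78.1% higher on that scale. Ccl5 at -0.10 (0.155) and Xcl1 at -0.07 (0.627) did not pass there. Xcl1, a chemokine for cross-presenting dendritic cells, changed by -0.64 ± 0.14 SE and Ccl3, which myeloid cells make too, by 0.57 ± 0.08 SE.

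The receptor genes of the NK gene complex on chromosome 6 were lower or did not pass. Of 16 tested receptor genes on the list of NK cluster genes, the 4 genes already described not included, 0 rose and 7 fell, beside 6.29% and 10.3% of all tested genes. A negative log2 change was found in 15 of the 16 and in 5850 of all 10666 tested genes, and the median of the 16 was -0.50. The other 7 of the 23 listed genes in the tables were too low for a test. Klra8 (Ly49H, an activating receptor for a cytomegalovirus protein) averaged 0.236 ± 0.0173 FPKM in irradiated and 2.65 ± 0.527 FPKM in control libraries (SD, n = 3), with a log2 change of -1.55 ± 0.17 SE (limma adjusted p = 7.30e-05). Klra9 (Ly49I) averaged 0.715 ± 0.230 FPKM in irradiated and 2.62 ± 0.816 FPKM in control libraries, with a log2 change of -1.06 ± 0.19 SE (adjusted p = 0.00303). Both reached the minimum mean of 1 FPKM through the control libraries, where they were higher, so a gene of this kind could enter the test mainly by differing. With no filter on low values their adjusted p-values were 0.000778 and 0.0172. Klrc2 averaged 4.13 ± 1.06 FPKM in irradiated and 7.99 ± 2.18 FPKM in control libraries (adjusted p = 0.0206), a call lost without irradiated replicate 3 or control replicate 2 or 3 (adjusted p = 0.06998 to 0.0886), with no filter (0.0912) and with no trend (0.0551). Ly49 genes, and likewise Klrc genes, are related in sequence, so a read may fit several of them, and each copy's value is uncertain. Shared stretches were not counted for these genes. On the T cell core scale 2 of the 16 rose, and 2 fell, namely Klra8 and Klra9, beside 78.1% and 2.48% of all tested genes.

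**Figure D3:**
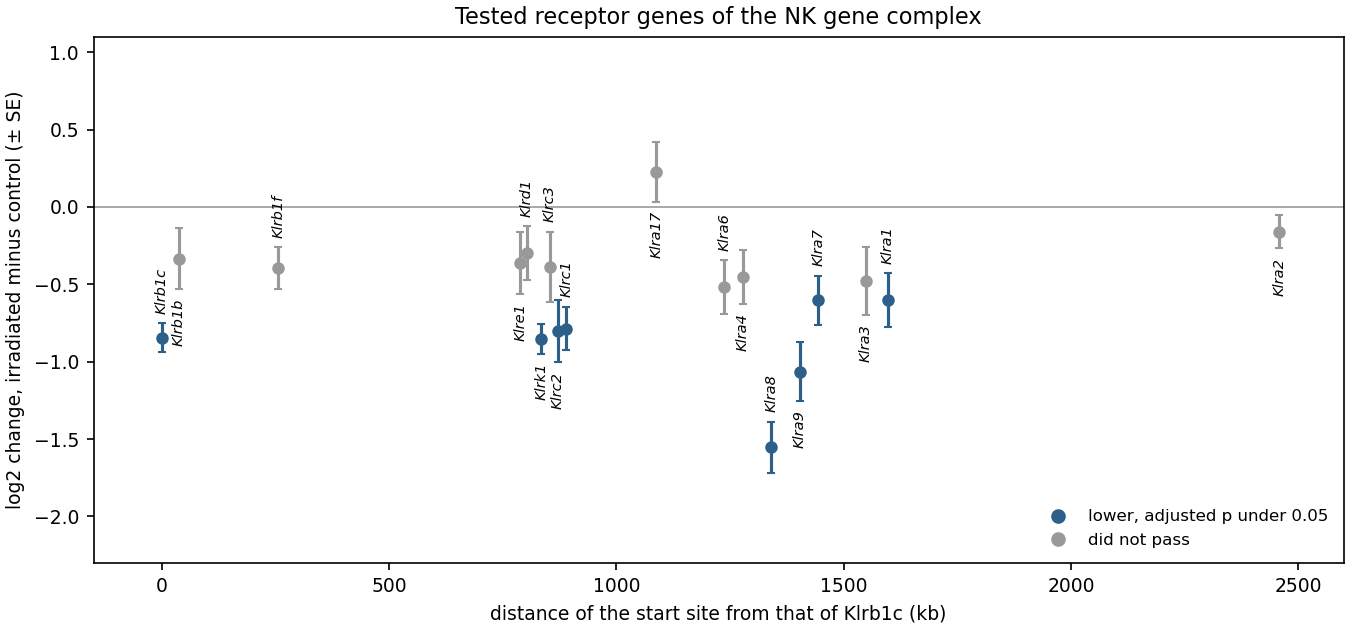
Log2 change and standard error of each tested NK gene complex receptor gene against its distance from Klrb1c, start site to start site, in kb. Genes that fell are in blue and genes that did not pass in grey. Klrg1, at -6506 kb on the same chromosome, and Ncr1, on chromosome 7, are not shown. Klra8, which reached the minimum level through its control libraries, lies lowest at -1.55, and neighbours differ, with Klrk1 at -0.85 beside Klrd1 at -0.30.

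The signalling partners of these receptors did not move as one. Of 18 tested coreceptor and adaptor genes 3 rose and 6 fell, beside 6.29% and 10.3% of all tested genes. Their median was -0.33. Tyrobp (DAP12) and Hcst (DAP10), the adaptors of NKG2D and Ly49 receptors, averaged 865 ± 38.9 and 86.2 ± 8.59 FPKM in irradiated and 886 ± 61.3 and 85.9 ± 5.81 FPKM in control libraries and did not pass (limma adjusted p = 0.744 and 0.986), and both were chosen after their values were seen. Il2rb, whose product binds IL-2 and IL-15 and is needed by NK cells, averaged 43.4 ± 2.15 FPKM in irradiated and 70.4 ± 1.14 FPKM in control libraries, a log2 change of -0.69 ± 0.06 SE (adjusted p = 1.69e-05). Il18rap and Il18r1, the chains of the IL-18 receptor, rose by 0.63 ± 0.06 and 0.57 ± 0.11 SE on the log2 scale. Sh2d2a, a T cell adaptor, changed by -0.55 ± 0.10 SE.

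Ligands of the receptors were represented mainly by MHC class I genes. Of 6 tested ligand genes 0 rose and 3 fell, namely H2-K1, H2-D1 and H2-T23, beside 6.29% and 10.3% of all tested genes. H2-K1, recognised by Ly49 receptors, averaged 498 ± 4.95 FPKM in irradiated and 853 ± 7.79 FPKM in control libraries (SD, n = 3, log2 change -0.78 ± 0.04 SE). H2-T23, which encodes Qa-1, the ligand of CD94 with NKG2A, changed by -0.39 ± 0.05 SE (limma adjusted p = 0.000181). On the T cell core scale it stood at 0.21 (adjusted p = 0.00249), below the median of all tested genes there, 0.52. On that scale 4 of the 6 were higher and 1 lower, beside 78.1% and 2.48% of all tested genes. The positive sign of H2-T23 there is thus no result about it. Ulbp1, a ligand of NKG2D, averaged 7.48 ± 1.36 FPKM in irradiated and 6.07 ± 1.37 FPKM in control libraries and did not pass (adjusted p = 0.331).

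Transcription factors of killer cells were lower in part. Of 11 tested factors 0 rose and 5 fell, beside 6.29% and 10.3% of all tested genes. Their median was -0.36. Runx3, which drives the CD8 and cytotoxic programme, averaged 12.9 ± 0.893 FPKM in irradiated and 17.2 ± 0.284 FPKM in control libraries (SD, n = 3, log2 change -0.39 ± 0.09 SE, limma adjusted p = 0.00967), and stood at 0.17 on the T cell core scale (adjusted p = 0.0831). Tbx21 (T-bet) averaged 7.19 ± 1.08 FPKM in irradiated and 11.01 ± 1.04 FPKM in control libraries (adjusted p = 0.0104), a call lost without control replicate 2 (0.0554). Tox changed by -1.17 ± 0.14 SE and Gata3 by -0.93 ± 0.16 SE, and both were also lower on the T cell core scale.

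**Figure D4:**
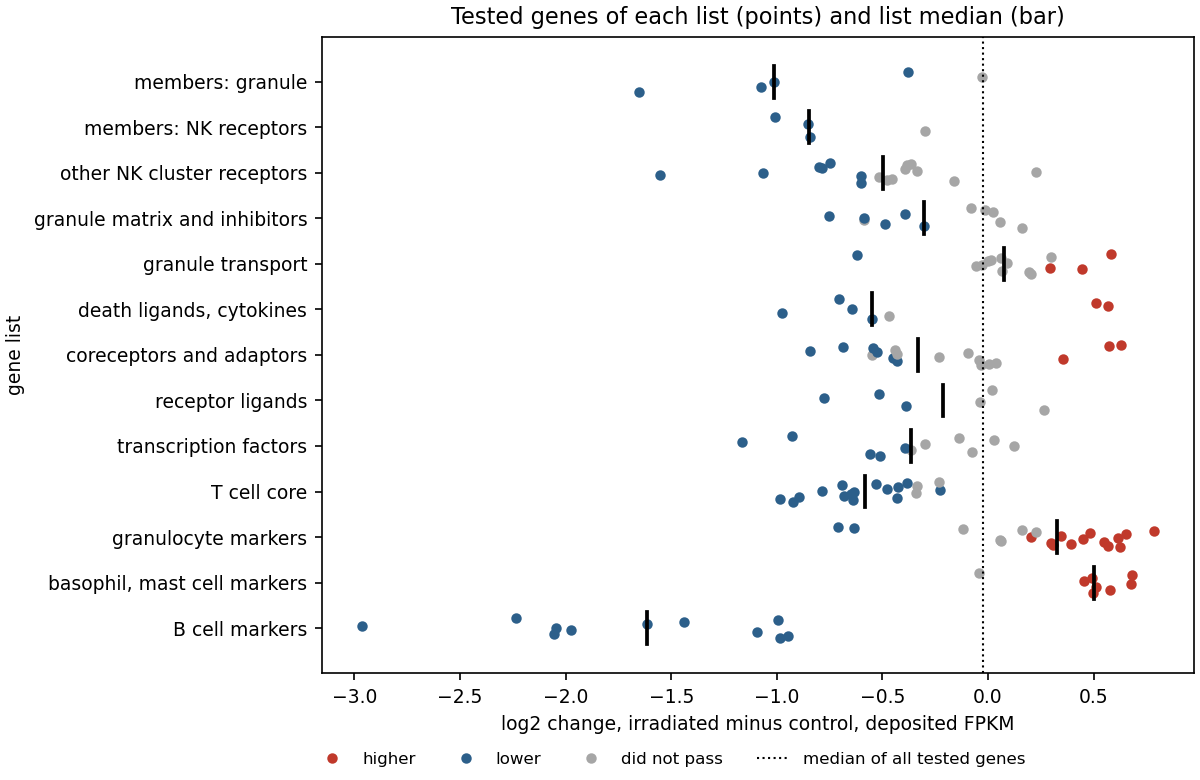
Log2 change of each tested gene, irradiated minus control, by gene list, with the list median as a bar and the median of all tested genes (-0.02) dotted. The granule and NK receptor genes have medians of -1.01 and -0.85, the T cell core -0.58, and granule transport 0.08.

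Markers of several other marrow cells were lower as well. Of 10 tested plasmacytoid markers 8 fell, with sums of 113 to 131 FPKM in irradiated and 252 to 259 FPKM in control libraries, and of 11 tested B cell markers 11 fell, with sums of 43.7 to 49.6 FPKM in irradiated and 135 to 145 FPKM in control libraries. Of 8 Treg markers 6 fell, with sums of 71.0 to 81.9 FPKM in irradiated and 117 to 126 FPKM in control libraries, and of 9 erythroid markers 7 fell, with sums of 734 to 764 FPKM in irradiated and 1091 to 1331 FPKM in control libraries. Over all tested genes 10.3% fell. Some of the B cell, plasmacytoid and Treg markers that fell averaged under 1 FPKM in irradiated libraries. They reached the minimum mean of 1 FPKM through the control libraries, where they were higher. Which cells gave the transcripts of the 10 genes was not tested.

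The genes nearest to the mean profile of the granule genes were partly macrophage genes. That mean joins unlike genes, with log2 changes from -1.65 for Gzma to -0.03 for Nkg7. Nearness to the mean is therefore not nearness to any single granule gene. Likeness was the root mean square difference of log2(FPKM + 1), centred on each gene's mean, over the 6 libraries and among 7800 other genes averaging 5 FPKM or more, unnamed gene models left out. The mean profile of the 5 granule genes, which was lower by 0.83 on the log2 scale in irradiated libraries, was nearest to Hmox1 (haem oxygenase, 0.0146), Cd68 (0.0311), Adgre1 (the macrophage antigen F4/80, 0.0329) and Ear2 (an eosinophil-associated ribonuclease, 0.0356). Hmox1 averaged 60.3 ± 2.36 FPKM in irradiated and 109 ± 5.34 FPKM in control libraries (SD, n = 3). The mean profile of the 4 receptor genes was nearest to Mndal (0.0611), Acp5 (tartrate-resistant acid phosphatase, 0.0623), Serinc5 (0.0655) and Nr4a1 (0.0681). These distances describe 6 libraries in 2 groups and were not tested.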

How the data were processed

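Each library has 1 number a gene, as deposited by the authors, taken to be StringTie's FPKM (fragments scaled to transcript length and library size) because that tool writes this unit and column totals differ, since the file headers name only the sample. The submitters' processing notes list fastp, HISAT2, StringTie, GRCm38 and mm10, without versions. Per the labels' protocols a stranded mRNA library kit was used.

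Groups follow the sample titles. A gene entered the test if it averaged 1 FPKM or more. The fit was limma 3.58.1 (R 4.3.3; eBayes with trend, two-sided, Benjamini-Hochberg, threshold 0.05) of log2(FPKM + 1), so fold changes of low genes are understated. It was tested on simulated data. Intervals are 95% and use limma's moderated error. For the T cell core scale each library was divided by the geometric mean of 18 tested core genes before the same fit. Relative depth is the scale at which the largest number of genes under 0.1 FPKM equalled control replicate 1 within 0.001, which was 22 of 246 genes in irradiated replicate 1 and 47 of 322 in control replicate 2, so few genes carry this estimate. Other steps used Python 3.11.15 with pandas 2.3.3, numpy 2.4.6, scipy 1.17.1 and matplotlib 3.10.9. Positions are from GENCODE M21 and promoters from RefSeq GRCm38.p6.

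The 10 genes and all lists were chosen with earlier results of these data known. Genes that could be named are the 10, up to 4 with the lowest p per pathway list, the 2 most abundant of each marker list and the 4 nearest profiles. Tyrobp, Hcst, Fibp, Gzmc, Klrg1, Lat, Cma1 and the ratios were picked after their values were seen. The alternatives were other pseudocounts (0.1), filters (none, or a mean of 5 FPKM) and scalings (median-of-ratios, quantile, T cell core), a fit without trend, a block for replicate number, and fits lacking each library in turn.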

Additional observations from a re-analysis of the deposited data

How the results depend on the processing

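The falls of Gzma, Gzmb, Klrb1c and Klrk1 passed limma's threshold under every alternative run, those of Prf1 under every one that tested it, and Ctsw fell in all but the T cell core scale. The number of the 10 genes that fell was 7 with a pseudocount of 0.1, median-of-ratios scaling or quantile normalization, 6 with no filter, no trend or a replicate block, 5 with a minimum mean of 5 FPKM, which leaves Prf1, Ncr1 and Cd8a untested, and 6 to 7 without one library. Ncr1 was the gene lost: its log2 change of -1.01 had limma adjusted p = 0.113 with no filter, 0.0520 with a replicate block and 0.0702 with no trend, it was -0.58 on the T cell core scale, and it ran from -1.35 to -0.83 without one library. The cause was not tested.

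The T cell core scale moved all genes upward because the core mean was lower in irradiated libraries. That mean was 16.9 to 17.3 FPKM there and 25.7 to 26.5 FPKM in control libraries. The scale gave 8334 higher and 264 lower genes, with 2 of the 10 higher, and it reversed Nkg7 (0.57), Ctsw (0.20), Klrd1 (0.25), Cd8a (0.16), Gzmm (0.0825), Lamp1 (0.21), Ctsh (0.11), Ctsc (0.28), Sh2d2a (0.0186), H2-D1 (0.0869), H2-T23 (0.21), Runx3 (0.17), Fcgr3 (0.55), Thy1 (0.21), Tnfrsf18 (0.0010), Lyz2 (0.34), Ccr2 (0.57) and Tyrobp (0.57). Median-of-ratios scaling put Nkg7 at 0.0014. Without one library the counts ran from 414 to 684 higher and 709 to 968 lower genes, lowest without control replicate 2. Signs also turned, without passing, for Fcgr3 (range -0.0706 to 0.0029) and Ccr2 (-0.0660 to 0.0211) without irradiated replicate 2, for Hcst (-0.0696 to 0.0718) without irradiated replicate 3 or control replicate 1 (-0.0525), for Cd8b1 (-0.0433 to 0.2116) without control replicate 1, and for Tyrobp (-0.0900 to 0.0072) and Fibp (-0.0023 to 0.1519) without control replicate 2.

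Replicate numbers are shared between the groups, but same-numbered libraries did not deviate together (correlations of 0.0111, -0.0423 and -0.0228), so the numbers were not taken as pairs. A replicate block gave 558 higher and 948 lower genes and ended the calls of Ncr1 and Sytl3 (adjusted p = 0.0682). Absolute depth is unknown, so no counting error can be given, and Prf1 and Ncr1 lie near the minimum level for a test.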
